A study of Mus musculus with 3 samples.

Results

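The 40 genes described here act in DNA replication and in mitosis. They were followed through the epithelium of the mouse small intestine, in crypt cells, in goblet cells that were still cycling and in adenoma cells. They are 40 of the 27998 genes of the count tables, 20 that are known as S phase genes (*Pcna* to *Gmnn*, the S list) and 20 that are known as G2 and mitosis genes (*Mki67* to *Kif23*, the G2/M list). Genes were placed in the lists by their known phase, not by values measured here, but they were chosen with earlier results of these data known. The RNA of single EpCAM+ epithelial cells, sorted from C57BL/6 mice, had been sequenced in 1 library per genotype, without replicates. WT was the wild type, analysed on day 21 after tamoxifen. *LApc* carried *Lgr5-EGFP-IRES-CreERT2* and floxed *Apc*, the brake on Wnt signaling that is lost in most intestinal adenomas, and was analysed on day 29. *LApcL* carried floxed *Lef1*, a transcription factor of the Wnt pathway, in addition to the alleles of *LApc*, and was analysed on day 21. All 3 groups had received tamoxifen, in doses of 2 mg. The Cre recombinase is driven by the *Lgr5* locus, so deletion starts in stem cells and their descendants, and a sorted epithelium holds recombined and normal cells together. Genotype cannot be told apart from mouse and library, nor *LApc* from the later day. No test between genotypes was possible.

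A cell that is to divide first copies its DNA and then separates the copies. Before S phase, *Cdc6* and *Cdt1* load the helicase *Mcm2* to *Mcm7* onto DNA, geminin (*Gmnn*) blocks *Cdt1* from loading it again, and E2F factors switch on the genes of replication and of nucleotide supply. The genes of mitosis follow later, under the MuvB complex with B-MYB and FOXM1, which bind promoters with a cell-cycle homology region. In the intestine, division is confined to the crypts in health, where stem cells and transit-amplifying cells renew the lining, and early secretory progenitors divide before they settle as goblet cells.

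The libraries held 140181087 (WT), 79696291 (*LApc*) and 191509615 (*LApcL*) unique molecular identifiers (UMIs, each marking 1 captured RNA molecule). They held 11453, 13214 and 17388 barcodes, of which 0.541% (WT), 17.7% (*LApc*) and 2.38% (*LApcL*) were over the limit for mitochondrial UMIs. *LApc* thus lost the largest share to this filter, and the part of that loss in differences between libraries was not tested. After filters, 10138, 9601 and 14394 cells were kept. Depth differed between the libraries, so every cell was thinned at random to 3000 UMIs. Cells below that number were dropped, which left 10138, 8629 and 14290 cells. Pairs of libraries shared 214 to 318 cell barcodes, at most 2.52% of the smaller library. Cells were clustered without cell-cycle genes and named from marker genes. Crypt-like cells numbered 2612, 1941 and 1581 in WT, *LApc* and *LApcL*. Adenoma-like cells numbered 1178 in *LApc* and 8559 in *LApcL*. Adenoma markers summed to 1665 CPM (UMIs scaled to a total of 1000000) in the adenoma-like cells of *LApc* and 959 CPM in those of *LApcL*, against 4.98, 15.1 and 81.4 CPM in the crypt-like cells. The crypt-like value of *LApcL* was set in part by the rule that left out crypt-like cells with more than 1 adenoma-marker UMI. Different clusters held most of a class in different libraries. Crypt-like cells of WT came mostly from a cluster led by *Clca3b* and *Rbp7*, and those of *LApc* and *LApcL* from a cluster led by *Clca3b*, *Gkn3* and *Lgr5* and from one led by hemoglobin genes. Adenoma-like cells of *LApc* came mostly from a cluster led by *Wfdc18*, and those of *LApcL* from clusters led by *Msx1*, *Ifitm1* and *Clu*. *Lef1* itself stood at 23.5 CPM (83 UMIs) in adenoma-like cells of *LApc* and at 3.23 CPM (83 UMIs) in those of *LApcL*, and at 0.766, 1.37 and 1.69 CPM in crypt-like cells. UMIs are read at the 3′ end, so a deleted exon elsewhere in *Apc* or *Lef1* need not change them, and these values are no check of the deletion.

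Short motifs known from cell-cycle promoters were counted before the genes. The table of RefSeq promoters (GRCm38.p6) held 35 of the 40 genes, 17 of the S list and 18 of the G2/M list, and the 250 bases before each start were searched on both strands. An E2F motif (TTTGGCGC, TTTGCCGC, TTTCGCGC or TTTCCCGC) stood before 5 S genes, *Mcm5*, *Mcm6*, *Mcm7*, *Cdc6* and *Uhrf1* (29.4%), and before 1 G2/M gene, *Cdk1* (5.56%), against 2.16% of 27025 genes. A cell-cycle homology region (TTTGAA or TTCGAA) stood before 3 S genes, *Mcm2*, *Mcm7* and *Fen1* (17.6%), against 19.6% of all genes. It stood before 7 G2/M genes (38.9%), *Mki67*, *Top2a*, *Ube2c*, *Cdk1*, *Ccnb2*, *Cdc20* and *Kif11*. CCAAT, the letters that NF-Y binds, stood before 10 S genes (58.8%) and 15 G2/M genes (83.3%), against 37.5% of all genes. A match is a description of letters, not a site shown to be bound. *Cdk1* and the S gene *Mcm7* held all 3 kinds. The promoters of 4 genes are printed as examples 5′ to 3′ on the strand of the gene, *Mcm5* and *Mcm6* for the S list and *Top2a* and *Cdk1* for the G2/M list. They lie at chr8:75109259-75109508 (*Mcm5*, plus strand), chr1:128359706-128359955 (*Mcm6*, minus strand), chr10:69352913-69353162 (*Cdk1*, minus strand) and chr11:99024190-99024439 (*Top2a*, minus strand) of GRCm38.p6. Capitals mark a match on either strand, and overlapping matches run together.
Mcm5: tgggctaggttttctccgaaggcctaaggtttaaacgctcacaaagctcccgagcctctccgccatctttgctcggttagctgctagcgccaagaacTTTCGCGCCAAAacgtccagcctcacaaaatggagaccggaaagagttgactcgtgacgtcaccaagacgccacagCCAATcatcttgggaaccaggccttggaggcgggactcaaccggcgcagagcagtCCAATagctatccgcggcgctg
Mcm6: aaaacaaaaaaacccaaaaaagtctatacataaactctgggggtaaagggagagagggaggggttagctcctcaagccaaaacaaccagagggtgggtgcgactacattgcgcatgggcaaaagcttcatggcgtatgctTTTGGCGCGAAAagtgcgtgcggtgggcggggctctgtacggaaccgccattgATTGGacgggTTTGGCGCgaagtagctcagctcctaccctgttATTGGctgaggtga
Cdk1: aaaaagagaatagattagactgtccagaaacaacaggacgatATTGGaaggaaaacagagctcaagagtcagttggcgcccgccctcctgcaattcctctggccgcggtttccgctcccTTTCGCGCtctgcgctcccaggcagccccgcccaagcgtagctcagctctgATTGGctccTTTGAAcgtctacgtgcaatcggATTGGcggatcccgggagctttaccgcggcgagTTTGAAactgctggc
Top2a: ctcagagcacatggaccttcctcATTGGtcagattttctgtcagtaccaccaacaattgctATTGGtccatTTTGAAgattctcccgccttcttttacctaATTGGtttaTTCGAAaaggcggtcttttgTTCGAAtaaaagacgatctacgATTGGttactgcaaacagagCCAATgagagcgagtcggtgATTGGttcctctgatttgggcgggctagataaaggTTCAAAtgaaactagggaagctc

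The 5 genes described in full throughout are spread over 5 chromosomes of GRCm38 (GENCODE positions). *Pcna* (ENSMUSG00000027342), the sliding clamp of the DNA polymerases, lies at chr2:132249162-132253314. *Mki67* (ENSMUSG00000031004), which coats mitotic chromosomes and is the usual stain for proliferation, lies at chr7:135689784-135716361. *Top2a* (ENSMUSG00000020914), which untangles the copied DNA, lies at chr11:98992943-99024189. *Cdk1* (ENSMUSG00000019942), the kinase that starts mitosis, lies at chr10:69335146-69352938, and *Ccnb1* (ENSMUSG00000041431), its cyclin, at chr13:100778650-100786570. UMIs count the 3′ ends of transcripts, whole genes were counted, and levels of different genes are not compared here. A near copy of *Pcna*, *Pcna-ps2*, stands in the same gene table, so reads could have been split between the copies and the level of *Pcna* is uncertain to that extent.

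In crypt-like cells both lists stood far above the level of the absorptive lining. The 20 S genes together took 1609 CPM in WT crypt-like cells (95% interval 1581 to 1638), 1296 CPM in *LApc* (1267 to 1326) and 1353 CPM in *LApcL* (1320 to 1387). The 20 G2/M genes took 1761 CPM in WT (1732 to 1791), 1666 CPM in *LApc* (1633 to 1699) and 1196 CPM in *LApcL* (1165 to 1228). All intervals are exact 95% intervals (Poisson for levels, binomial for shares and, conditional on the total, for ratios) and cover counting error only, not the differences between mice. In enterocyte-like cells, named from markers of the absorptive lining, the S genes took 182, 200 and 296 CPM and the G2/M genes 123, 208 and 261 CPM. These enterocyte-like values were used as the background for both lists, and they were highest in *LApcL*. A cluster led by *Reg1* and *Sis* held 1334 of the 2758 enterocyte-like cells of *LApc* and 581 of 1146 of *LApcL*, but 56 of 1446 of WT. Of its *LApc* and *LApcL* cells, 5.02% and 4.99% were cycling by the panel described below. The background therefore holds some cycling cells, and its make-up differed between libraries. In that cluster the S genes took 310, 230 and 263 CPM, so *LApcL* was not the highest there. In the cluster led by *Apoc3* and *Lct* they took 191, 164 and 358 CPM, and 0.853%, 0.503% and 6.09% of cells were cycling. In the one led by *Fabp6* and *Tmigd1* they took 162, 159 and 311 CPM. The *LApcL* median doublet scores of the last clusters, 0.136 and 0.150, were the highest of the libraries, and their part was not tested.

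**Figure D1:**
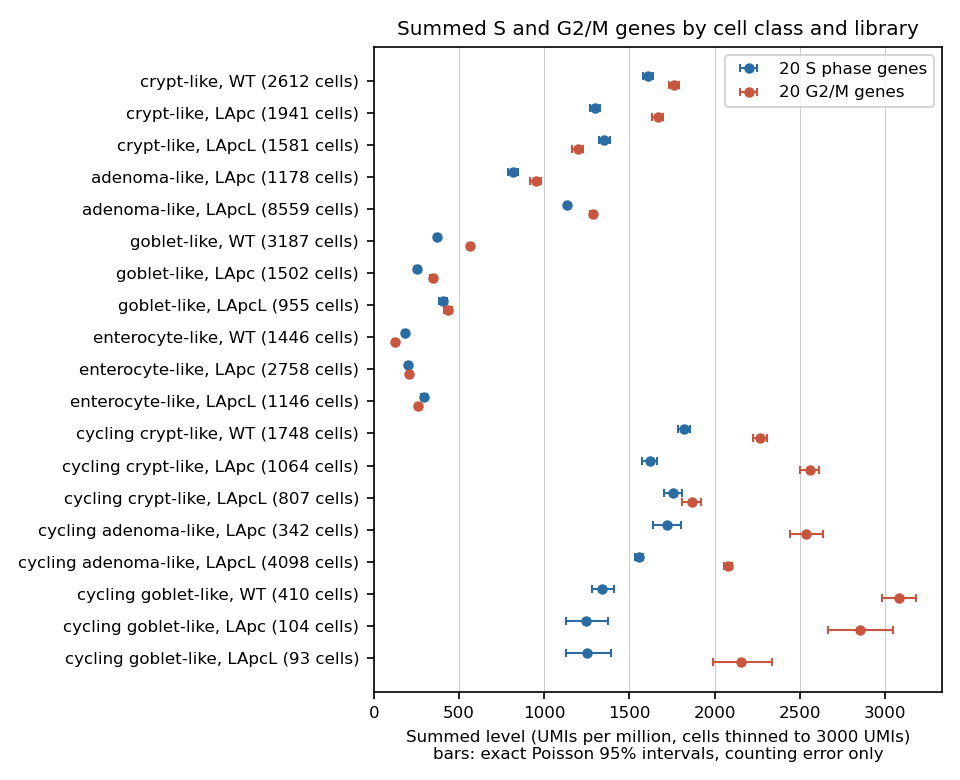
Summed level of the 20 S genes and of the 20 G2/M genes (CPM, cells thinned to 3000 UMIs) in each class of cells and library, with 95% Poisson intervals for counting error. Among the whole classes plotted, crypt-like cells of WT stood at 1609 CPM (S) and 1761 CPM (G2/M), and enterocyte-like cells of WT at 182 and 123 CPM.

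Adenoma-like cells carried more RNA of both lists in *LApcL* than in *LApc*. The S genes took 817 CPM in *LApc* (788 to 848) and 1133 CPM in *LApcL* (1120 to 1146), a ratio of 1.39-fold (log2 0.47, interval 0.42 to 0.53). The G2/M genes took 950 CPM in *LApc* (918 to 983) and 1284 CPM in *LApcL* (1270 to 1298), a ratio of 1.35-fold (log2 0.43, interval 0.38 to 0.49). The ratio was therefore alike in size for replication and mitosis genes. Markers of other cells differed in the same cells, with enterocyte markers at 3291 CPM in *LApc* and 1036 CPM in *LApcL*, goblet markers at 3693 and 1314 CPM, enteroendocrine markers at 630 and 134 CPM and the stem cell gene *Lgr5* at 41.9 and 6.15 CPM. Their part in the difference was not tested. In bulk sums of a class, more cycling cells and more RNA per cycling cell cannot be told apart, so cycling cells were also called from 60 other cell-cycle genes, none of them in the lists, as cells with at least 5 UMIs of these.

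Most genes of both lists took part in the adenoma difference. Called means past 1.2-fold, among genes at 10 CPM or more on average over the pair. In adenoma-like cells, 18 of 19 S genes at that level were called higher in *LApcL* and 1, *Pcna*, lower, against 18.2% called higher and 35.3% called lower of all 7946 genes. Of the G2/M genes, 17 of 20 were called higher and none lower, and *Ube2c*, *Nusap1* and *Aurkb* were within 1.2-fold. The median log2 ratio was 0.58 over the S genes and 0.45 over the G2/M genes, against -0.11 over all genes tested. Of the other cell-cycle genes, 19 of 25 S phase genes and 21 of 24 G2/M genes were called higher, and 1 and 0 lower.

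All 6 helicase genes, *Cdt1* and *Gmnn* were called higher in *LApcL*. *Mcm5* stood at 32.8 CPM in adenoma-like cells of *LApc* and 54.2 CPM in those of *LApcL* (log2 0.72, interval 0.45 to 1.01), *Mcm6* at 47.3 and 71.5 CPM (0.60, 0.37 to 0.83) and *Mcm7* at 52.3 and 81.0 CPM (0.63, 0.41 to 0.85). *Mcm4*, one of the smallest ratios of the S list, stood at 27.4 and 34.5 CPM (0.33, 0.02 to 0.65). The loader *Cdt1* stood at 22.9 and 39.8 CPM (0.80, 0.47 to 1.14), and its inhibitor *Gmnn* at 52.1 and 80.8 CPM (0.63, 0.42 to 0.86). So loader and inhibitor were both higher in *LApcL*. *Cdc6* was below the minimum, at 6.51 and 10.0 CPM. The ratios of *Mcm2*, *Mcm3*, *Rrm1*, *Tyms*, *Slbp*, which binds histone mRNA, and *Uhrf1* lay between 0.36 and 0.58.

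Nucleotide supply and repair genes followed the same direction. *Rrm2*, the subunit that limits ribonucleotide reductase, stood at 25.5 CPM in *LApc* and 42.4 CPM in *LApcL* (log2 0.74, interval 0.42 to 1.06), and thymidine kinase *Tk1* at 30.3 and 47.7 CPM (0.66, 0.37 to 0.95). *Ung*, which cuts uracil out of DNA, had the largest ratio of the S list, at 15.0 and 26.7 CPM (0.83, 0.43 to 1.26). *Dut*, which destroys dUTP before it can be built into DNA, had the smallest ratio above 1, at 111 and 138 CPM (0.31, 0.16 to 0.46).

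*Pcna* was the exception. It stood at 72.4 CPM in adenoma-like cells of *LApc* and 55.0 CPM in those of *LApcL* (log2 -0.40, interval -0.59 to -0.20), while the flap nuclease *Fen1*, which *Pcna* binds (22.4 and 36.6 CPM, 0.71, 0.38 to 1.06), and the helicase component *Gins2* (28.6 and 42.6 CPM, 0.58, 0.28 to 0.89) were higher in *LApcL*. In crypt-like cells *Pcna* stood at 97.1, 95.1 and 59.9 CPM (WT, *LApc*, *LApcL*), and in enterocyte-like cells at 22.8, 35.4 and 22.4 CPM. The *LApcL* library was the lowest in adenoma-like and crypt-like cells, and level with WT in enterocyte-like cells. With 1 *LApcL* library, a value of that mouse and a value of that genotype cannot be told apart.

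Among the mitosis genes, *Mki67* stood at 66.5 CPM in adenoma-like cells of *LApc* and 86.4 CPM in those of *LApcL* (log2 0.38, interval 0.18 to 0.58). *Top2a* stood at 125 and 171 CPM (0.45, 0.31 to 0.60), *Cdk1* at 53.8 and 70.1 CPM (0.38, 0.17 to 0.61) and *Ccnb1* at 37.6 and 47.9 CPM (0.35, 0.09 to 0.62). The 3 largest ratios of the list belonged to *Bub1*, a spindle checkpoint kinase (7.36 and 15.1 CPM, 1.03, 0.46 to 1.67), *Kif11*, the motor that pushes the spindle poles apart (11.9 and 19.3 CPM, 0.70, 0.24 to 1.19), and *Cdc20*, which activates the ligase that ends mitosis (50.1 and 75.9 CPM, 0.60, 0.38 to 0.83). The 3 smallest belonged to the ubiquitin carrier *Ube2c* (114 and 131 CPM, 0.20, 0.05 to 0.35), the microtubule binder *Nusap1* (24.1 and 25.9 CPM, 0.11, -0.22 to 0.45) and *Aurkb* (19.8 and 18.7 CPM, -0.08, -0.45 to 0.30). *Aurkb* is the kinase of the passenger complex, and its partner *Birc5* stood at 114 and 160 CPM (0.49, 0.34 to 0.64), so members of 1 complex did not share a ratio. The cyclin *Ccnb2*, the centromere proteins *Cenpa*, *Cenpe* and *Cenpf*, the spindle genes *Tpx2*, *Aurka*, *Kif20b* and *Kif23* and the mitotic kinase *Plk1* lay between 0.30 and 0.59.

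In adenoma-like cells the share of cycling cells went with the summed levels. In crypt-like cells it did so only in part. There the S sums of *LApc* and *LApcL* (1296 and 1353 CPM) stood in the other order than their shares. Of adenoma-like cells, 29.0% were cycling in *LApc* (26.5 to 31.7) and 47.9% in *LApcL* (46.8 to 48.9). Of crypt-like cells, 66.9% were cycling in WT (65.1 to 68.7), 54.8% in *LApc* (52.6 to 57.0) and 51.0% in *LApcL* (48.5 to 53.5). The order of *LApc* and *LApcL* turned without thinning (78.4% and 80.8%), with cell-cycle genes kept in clustering (58.2% and 59.4%) and without doublet removal (54.7% and 56.4%), and WT was the highest in each. Of enterocyte-like cells, 1.11%, 2.72% and 5.06% were cycling. The 2 libraries with adenoma-like cells thus differed in these beyond counting error, and the enterocyte-like values give the background. The thinned depth was the same in every cell, but the cells' own median depth was 7669 UMIs for adenoma-like cells of *LApc* and 11726 for those of *LApcL*, and the median doublet score was 0.0880 and 0.133. Without thinning the shares were 51.0% and 82.6%. The part of doublets in the difference was not tested.

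Within cycling cells the order of the libraries turned. The S genes took 1719 CPM in cycling adenoma-like cells of *LApc* (342 cells) and 1558 CPM in those of *LApcL* (4098 cells), log2 -0.14 (-0.21 to -0.07). The G2/M genes took 2537 and 2079 CPM, log2 -0.29 (-0.35 to -0.23). None of the 20 S genes was called higher in *LApcL* and 4 were called lower, *Pcna*, *Mcm4*, *Rrm1* and *Dut*. Of the G2/M genes none was called higher and 11 of 20 lower, against 18.9% higher and 32.0% lower of all 7814 genes. In the adenoma-like cells below that limit (836 and 4461 cells) the S genes took 449 and 743 CPM and the G2/M genes 301 and 554 CPM. Over the whole class, *LApcL* thus had more cycling cells and higher levels in the other cells, but not higher levels per cycling cell, at this definition of a cycling cell. The clusters behind the class differed in the G2/M level per cycling cell, as given below. Of the panel genes, 3 of 28 in S phase and 4 of 29 in G2/M were called higher, and 7 and 12 lower. The panel itself picked the cycling cells, so its counts are no independent check of the lists.

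*Pcna* had the lowest ratio among the S genes of cycling adenoma-like cells, at 148 CPM in *LApc* and 75.1 CPM in *LApcL* (log2 -0.98, interval -1.23 to -0.72). *Mcm4* followed at 60.4 and 45.2 CPM (-0.42, -0.80 to -0.02) and *Rrm1* at 125 and 97.6 CPM (-0.35, -0.62 to -0.08). At the other end, *Cdt1* stood at 48.7 and 54.3 CPM (0.15, -0.26 to 0.60), *Gmnn* at 104 and 116 CPM (0.15, -0.13 to 0.45) and *Mcm5* at 70.2 and 77.0 CPM (0.13, -0.21 to 0.50). The intervals of these 3 included no difference.

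Of the mitosis genes in cycling adenoma-like cells, *Aurkb* stood at 59.5 CPM in *LApc* and 33.2 CPM in *LApcL* (log2 -0.84, interval -1.23 to -0.43), *Nusap1* at 76.0 and 46.7 CPM (-0.70, -1.05 to -0.34) and *Ube2c* at 309 and 223 CPM (-0.47, -0.64 to -0.30). *Ccnb1* stood at 103 and 74.7 CPM (-0.47, -0.76 to -0.16), *Mki67* at 182 and 143 CPM (-0.35, -0.57 to -0.13), *Cdk1* at 150 and 119 CPM (-0.33, -0.57 to -0.08) and *Top2a* at 364 and 299 CPM (-0.28, -0.44 to -0.12). *Mki67*, *Top2a*, *Cdk1* and *Ccnb1* were thus lower per cycling cell and higher per adenoma-like cell in *LApcL*. *Bub1* (21.4 and 22.9 CPM, 0.10, -0.53 to 0.79), *Plk1* (61.4 and 60.5 CPM, -0.02, -0.39 to 0.37) and *Cenpa* (192 and 188 CPM, -0.03, -0.24 to 0.19) had the highest ratios, and none was called.

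Within clusters that both libraries shared, the adenoma difference was uneven. In the *Wfdc18*-led cluster, which held 683 cells of *LApc* and 68 of *LApcL*, the S genes took 760 and 951 CPM and the G2/M genes 959 and 1309 CPM. In the *Ifitm1*-led cluster (116 and 3179 cells) the S genes took 891 and 1230 CPM and the G2/M genes 1020 and 1382 CPM. In the *Msx1*-led cluster (108 and 3281 cells) the S genes took 1244 and 1196 CPM and the G2/M genes 1213 and 1385 CPM. The S genes of the *Msx1*-led cluster therefore differed by less than counting error, and both lists stood higher in *LApcL* in the *Ifitm1*-led cluster beyond it. In the *Clu*-led cluster (222 and 1655 cells) the S genes took 821 and 926 CPM and the G2/M genes 859 and 1077 CPM. In the *Atp4a*-led cluster (49 and 376 cells) the S genes took 483 and 704 CPM and the G2/M genes 490 and 489 CPM. Of the 342 cycling cells of *LApc*, 183 lay in the *Wfdc18*-led cluster, with 2783 CPM of the G2/M genes. Cycling cells of the *Clu*-led cluster (66 and 612) took 2096 (1899 to 2308) and 2196 CPM (2128 to 2264), which overlapped. Those of the *Msx1*-led cluster (49 and 1746) took 2204 (1971 to 2458) and 1985 CPM (1947 to 2023). Their S genes took 1697 and 1495 CPM (*Clu*) and 2007 and 1504 CPM (*Msx1*).

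Set against crypt-like cells of the same library, adenoma-like cells of *LApc* stood lower in both lists. The log2 ratio was -0.67 for the S genes and -0.81 for the G2/M genes (intervals -0.73 to -0.60 and -0.87 to -0.75). All 19 S genes at the minimum level were called lower, as were 18 of 19 G2/M genes, with *Ccnb1* within 1.2-fold, against 47.7% called higher and 22.1% called lower of all 7982 genes. In *LApcL* the S genes fell by 0.26 on the log2 scale (-0.30 to -0.22) while the G2/M genes stood at 0.10 (0.06 to 0.14). There, 8 of 19 S genes were called lower and 1, *Rrm2*, higher, and 9 of 20 G2/M genes were called higher and 4 lower, against 41.4% higher and 14.5% lower of all 7418 genes. The median over all genes was itself 0.23 in *LApc* and 0.18 in *LApcL*, and with TMM scaling, an alternative to the plain total, the G2/M value of *LApcL* turned to -0.04. It also turned with cell-cycle genes kept in clustering (-0.15), without doublet removal (-0.04) and at another clustering resolution (-0.01), so the direction of the G2/M list between these cells of *LApcL* depended on these settings. Of the other cell-cycle genes in *LApcL*, 12 of 28 S phase genes were called lower and 1 higher, and 13 of 25 G2/M genes were called higher and 1 lower, and in *LApc* 20 of 26 and 23 of 26 were called lower.

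Of the S list, 8 genes were called lower in adenoma-like than in crypt-like cells in both libraries, *Mcm2*, *Mcm5*, *Mcm6*, *Tk1*, *Ung*, *Cdt1*, *Slbp* and *Uhrf1*, against 10.6% of all 7261 genes at the minimum level in both. *Tk1*, the salvage kinase for thymidine, had the largest difference in *LApc*, from 101 CPM in crypt-like cells to 30.3 CPM in adenoma-like cells (log2 -1.73, interval -2.04 to -1.43), and in *LApcL* it stood at 88.6 and 47.7 CPM (-0.89, -1.05 to -0.73). *Ung* went from 34.0 to 15.0 CPM in *LApc* (-1.18, -1.65 to -0.74) and from 49.5 to 26.7 CPM in *LApcL* (-0.89, -1.11 to -0.67). *Mcm6* went from 85.0 to 47.3 CPM (-0.85, -1.11 to -0.59) and from 107 to 71.5 CPM (-0.58, -0.72 to -0.43). *Cdt1* went from 49.6 to 22.9 CPM in *LApc* (-1.11, -1.49 to -0.75) and from 52.7 to 39.8 CPM in *LApcL* (-0.41, -0.61 to -0.20). The smallest differences in *LApc* were those of *Mcm7* (-0.29, -0.55 to -0.03), *Mcm4* (-0.30, -0.67 to 0.06) and *Mcm2* (-0.37, -0.69 to -0.06). *Rrm2* was the S gene highest in adenoma-like cells of *LApcL*, at 34.4 CPM in crypt-like and 42.4 CPM in adenoma-like cells (0.30, 0.06 to 0.55), ahead of *Fen1* (-0.04, -0.28 to 0.19) and *Mcm7* (-0.06, -0.21 to 0.10).

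Of the G2/M list, 4 genes were called lower in adenoma-like cells in both libraries, *Top2a*, *Nusap1*, *Aurkb* and *Kif11*, against the same 10.6% of all genes. *Top2a* went from 257 CPM in crypt-like to 125 CPM in adenoma-like cells in *LApc* (log2 -1.04, interval -1.2 to -0.89) and from 211 to 171 CPM in *LApcL* (-0.31, -0.40 to -0.20). *Nusap1* went from 62.7 to 24.1 CPM (-1.38, -1.74 to -1.04) and from 37.1 to 25.9 CPM (-0.52, -0.76 to -0.27), and *Kif11* from 32.1 to 11.9 CPM (-1.43, -1.95 to -0.94) and from 24.5 to 19.3 CPM (-0.34, -0.63 to -0.04). *Aurkb* had the lowest ratio in *LApcL* (30.8 to 18.7 CPM, -0.72, -0.99 to -0.44). *Mki67* went from 142 to 66.5 CPM in *LApc* (-1.09, -1.31 to -0.88) and from 101 to 86.4 CPM in *LApcL* (-0.23, -0.37 to -0.08), and *Cdk1* from 84.7 to 53.8 CPM (-0.66, -0.90 to -0.41) and from 63.9 to 70.1 CPM (0.13, -0.04 to 0.31).

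The 9 of 20 G2/M genes called higher in adenoma-like than in crypt-like cells of *LApcL* lay near the 41.4% of all genes, so the count is no result about the list, and the genes are given for their values. *Bub1* stood at 8.01 CPM in crypt-like and 15.1 CPM in adenoma-like cells (log2 0.91, interval 0.43 to 1.43), *Cenpa*, the histone that marks centromeres, at 71.1 and 130 CPM (0.87, 0.71 to 1.04), and *Cdc20* at 46.2 and 75.9 CPM (0.72, 0.51 to 0.93). *Ccnb1* stood at 32.5 and 47.9 CPM (0.56, 0.32 to 0.81) and *Ccnb2* at 53.3 and 77.5 CPM (0.54, 0.35 to 0.73). *Cenpe*, *Tpx2*, *Aurka* and *Plk1* were the other 4 called higher. In *LApc*, *Ccnb1* (43.3 and 37.6 CPM, -0.20, -0.52 to 0.11), *Cdc20* (61.0 and 50.1 CPM, -0.28, -0.55 to -0.02) and *Tpx2* (41.6 and 34.0 CPM, -0.29, -0.62 to 0.03) had the smallest differences. *Cdc20*, *Ccnb1* and *Tpx2* were thus at the upper end of the list in *LApc* too, and no test of that order was made. *Pcna* went from 95.1 to 72.4 CPM in *LApc* (-0.39, -0.61 to -0.18) and from 59.9 to 55.0 CPM in *LApcL* (-0.12, -0.31 to 0.07).

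**Figure D2:**
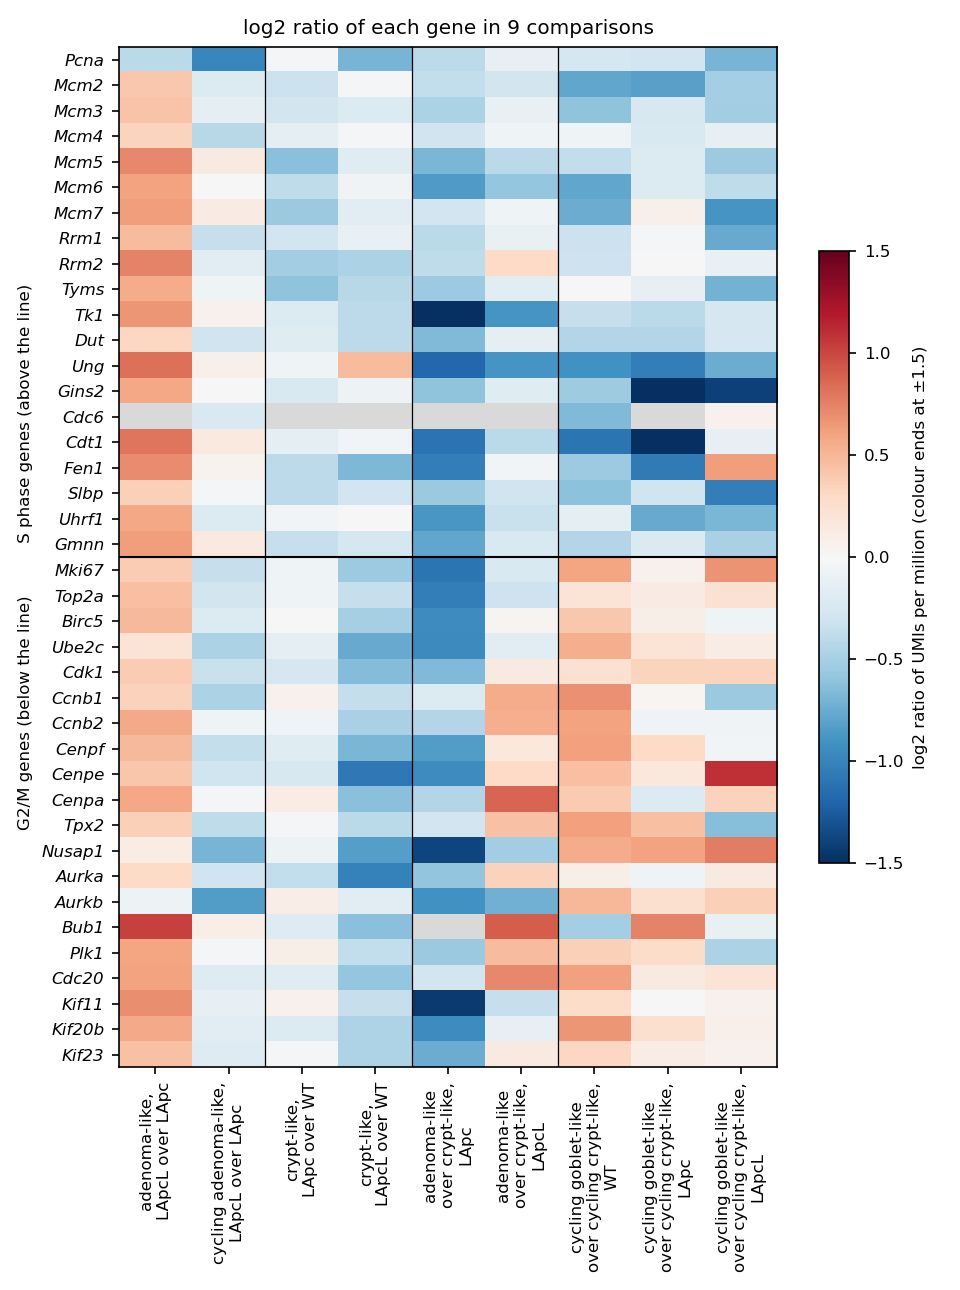
Colour map of the log2 ratio of each of the 40 genes (rows, S list above the line, G2/M list below) in the 9 comparisons described (columns), with red for higher, blue for lower, grey for genes below 10 CPM on average and the colour scale ending at 1.5 in either direction. In the first column, adenoma-like cells of *LApcL* over *LApc*, nearly all rows are red, with *Pcna* (-0.40) and *Aurkb* (-0.08) below 0.

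Crypt-like cells held at most 1 adenoma-marker UMI each. Adenoma markers still summed to 81.4 CPM in those of *LApcL*, against 4.98 CPM in WT, so these cells need not all be normal. In crypt-like cells the lists parted between the libraries. In *LApc* the S genes fell by 0.31 on the log2 scale relative to WT (-0.35 to -0.27) and the G2/M genes by 0.08 (-0.12 to -0.04). Of the S genes 11 of 19 were called lower and none higher, and of the G2/M genes 1 of 20, *Aurka*, was called lower and none higher, against 16.5% lower and 21.5% higher of all 7270 genes. In *LApcL* the S genes fell by 0.25 relative to WT (-0.29 to -0.21) and the G2/M genes by 0.56 (-0.60 to -0.51). There, 7 of 19 S genes were called lower and 1, *Ung*, higher, and 19 of 20 G2/M genes lower, with *Aurkb* within 1.2-fold, against 20.6% lower and 14.6% higher of all 7151 genes. Of the other cell-cycle genes, 19 of 28 S phase genes and 1 of 26 G2/M genes were called lower in *LApc*, and 12 of 28 and 22 of 26 in *LApcL*. Both comparisons used the same WT library. Set directly against each other, *LApcL* over *LApc*, the S genes of crypt-like cells stood at 0.06 (0.01 to 0.11) and the G2/M genes at -0.48 (-0.53 to -0.43). With cells thinned to 5000 UMIs the G2/M value of *LApc* over WT turned to 0.06.

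The S genes with the lowest ratios in *LApc* were *Mcm5* (81.7 CPM in WT and 52.7 CPM in *LApc*, log2 -0.63, interval -0.83 to -0.43), thymidylate synthase *Tyms* (129 and 85.5 CPM, -0.60, -0.75 to -0.44) and *Mcm7* (94.3 and 64.1 CPM, -0.56, -0.74 to -0.38). *Pcna* (-0.03, -0.19 to 0.13), *Uhrf1*, which carries DNA methylation through replication (-0.04, -0.29 to 0.20), and *Ung* (-0.06, -0.33 to 0.21) had the highest. In *LApcL* over WT, *Pcna* (-0.70, -0.90 to -0.50), the flap nuclease *Fen1* (60.1 and 37.7 CPM, -0.67, -0.93 to -0.42) and *Rrm2* (47.5 and 34.4 CPM, -0.47, -0.74 to -0.20) had the lowest ratios. *Ung* was the highest there, at 35.5 CPM in WT and 49.5 CPM in *LApcL* (0.48, 0.23 to 0.74), and *Uhrf1* and *Mcm2* were near 0 (-0.00 and -0.03).

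Of the mitosis genes in crypt-like cells, *Mki67* stood at 149, 142 and 101 CPM in WT, *LApc* and *LApcL*, a log2 ratio to WT of -0.06 (-0.20 to 0.07) and -0.55 (-0.71 to -0.40). *Top2a* stood at 269, 257 and 211 CPM (-0.07, -0.17 to 0.03, and -0.35, -0.46 to -0.24). *Cdk1* stood at 101, 84.7 and 63.9 CPM (-0.25, -0.41 to -0.08, and -0.65, -0.85 to -0.46) and *Ccnb1* at 41.6, 43.3 and 32.5 CPM (0.06, -0.19 to 0.30, and -0.36, -0.64 to -0.08). For these 4 genes the *LApcL* library was the lowest of the 3. The centromere motor *Cenpe* had the lowest ratio of *LApcL* to WT, at 56.5, 47.7 and 27.0 CPM (-1.07, -1.36 to -0.78, for *LApcL*), followed by *Aurka* (35.3, 27.3 and 17.5 CPM, -1.01, -1.39 to -0.66) and *Nusap1* (66.1, 62.7 and 37.1 CPM, -0.83, -1.09 to -0.58). *Aurkb* (34.7, 37.1 and 30.8 CPM, -0.17, -0.47 to 0.12), *Kif11* and *Top2a* had the highest. In *LApc* over WT, *Aurka* (-0.37, -0.66 to -0.09) was the lowest and *Cenpa* (110 and 118 CPM, 0.11, -0.04 to 0.25), *Aurkb* and *Plk1* the highest.

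Other signals also differed between the crypt-like cells of the libraries, not all in the order of the lists. The 5 heat-shock genes listed as a check summed to 240, 36.9 and 50 CPM in the crypt-like cells of the 3 libraries (WT, *LApc*, *LApcL*). Goblet markers summed to 5468, 3139 and 1489 CPM, and hemoglobin genes to 37.5, 1.89 and 537 CPM. In *LApcL* the hemoglobin genes stood at 4.13 CPM in cycling and at 1092 CPM in other crypt-like cells. The part of these signals in the differences between libraries was not tested. The balance also differed between the clusters behind the class.

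The balance of the lists was written as the log2 of G2/M UMIs over S UMIs in the same cells, a ratio that does not depend on the total. In crypt-like cells it was 0.13 in WT (0.10 to 0.16), 0.36 in *LApc* (0.32 to 0.41) and -0.18 in *LApcL* (-0.23 to -0.13). In adenoma-like cells it was 0.22 in *LApc* (0.14 to 0.29) and 0.18 in *LApcL* (0.16 to 0.20), and the intervals overlapped. The libraries therefore differed in the balance of crypt-like cells and could not be separated in that of adenoma-like cells. Among other cell-cycle genes the balance of crypt-like cells was -0.39, -0.06 and -0.63, in the same order of libraries, and that of adenoma-like cells -0.30 and -0.23.

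Levels in the clusters behind the crypt-like class differed from those of the class. In the *Lgr5*-led cluster (87, 637 and 729 cells) the S genes took 1697, 1080 and 1241 CPM and the G2/M genes 1513 (1368 to 1670), 871 (830 to 914) and 899 CPM (860 to 940) in WT, *LApc* and *LApcL*. In the hemoglobin-led cluster (82, 1254 and 779 cells) the S genes took 1606, 1406 and 1438 CPM and the G2/M genes 2272 (2088 to 2469), 2076 (2030 to 2122) and 1483 CPM (1434 to 1533). Its name is a label from its leading genes and does not describe all its cells. Crypt-like cells of *LApc*, most of them from this cluster, held 1.89 CPM of hemoglobin genes. Cycling and other crypt-like cells of *LApcL* held 4.13 and 1092 CPM. The cluster was named crypt-like from 3 raised markers, the fewest allowed and fewer than in the other clusters behind the class. In the cluster led by *Clca3b* and *Rbp7* (2443, 50 and 73 cells) the G2/M genes took 1753 (1723 to 1783), 1513 (1323 to 1724) and 1105 CPM (970 to 1253). The lower G2/M sum of *LApcL* than *LApc* was therefore seen in this cluster, with few cells, and in the hemoglobin-led one. It was not seen in the *Lgr5*-led cluster, where *LApc* and *LApcL* both stood below the 87 cells of WT.

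The balance within 1 cluster did not keep the order of the whole class. In the *Lgr5*-led cluster the balance was -0.17 in WT (-0.36 to 0.03), -0.31 in *LApc* (-0.40 to -0.22) and -0.47 in *LApcL* (-0.55 to -0.38). In the hemoglobin-led cluster it was 0.50 (0.31 to 0.69), 0.56 (0.51 to 0.61) and 0.04 (-0.02 to 0.11). In the cluster led by *Clca3b* and *Rbp7* it was 0.13 (0.09 to 0.16), 0.23 (-0.06 to 0.51) and -0.51 (-0.75 to -0.27). *LApcL* had the lowest balance in each of these clusters. *LApc* stood above WT over the whole class and below it, within overlapping intervals, in the *Lgr5*-led cluster. The sign of the difference between *LApc* and WT was therefore not the same over the class and within the *Lgr5*-led cluster.

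**Figure D3:**
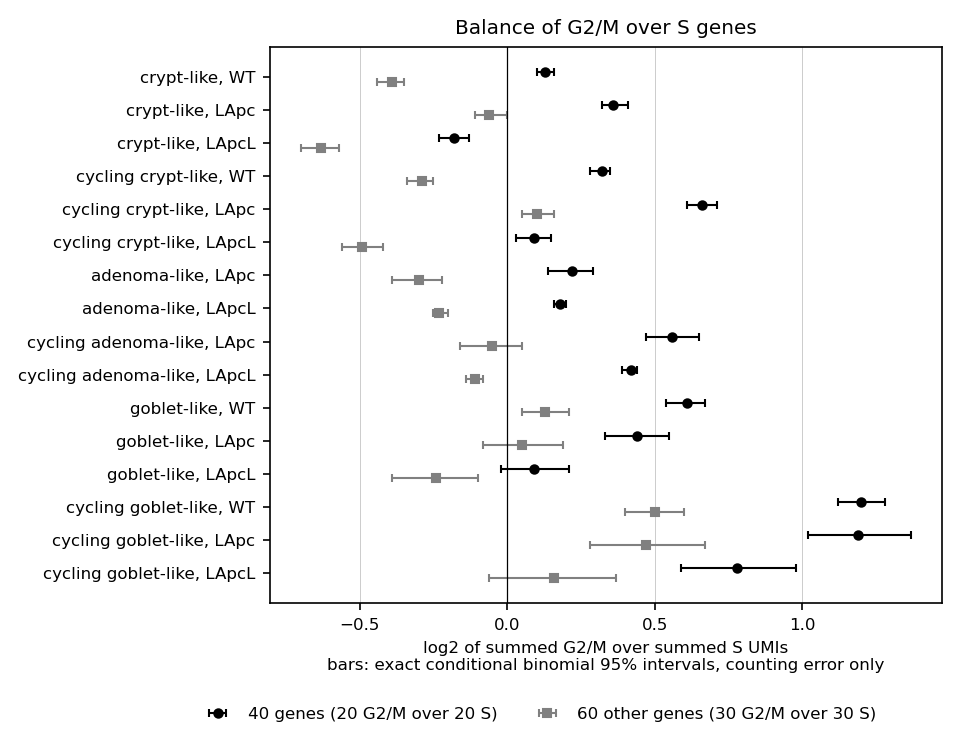
Balance (log2 of summed G2/M UMIs over summed S UMIs) by class and library, for the 40 genes (black circles) and for the 60 other cell-cycle genes (grey squares), with 95% intervals for counting error. The 60 other genes also picked the cycling cells, so in these the grey squares are no independent check. Cycling goblet-like cells stood highest for the 40 genes, at 1.2 in WT, 1.19 in *LApc* and 0.78 in *LApcL*, and crypt-like cells of *LApcL* stood below 0, at -0.18.

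As a whole class, cycling goblet-like cells leaned to mitosis genes in every library. Of goblet-like cells, 12.9% were cycling in WT (410 of 3187), 6.92% in *LApc* (104 of 1502) and 9.74% in *LApcL* (93 of 955), above the 1.11%, 2.72% and 5.06% of enterocyte-like cells. Their S genes took 1341 CPM in WT (1278 to 1408), 1247 CPM in *LApc* (1126 to 1377) and 1254 CPM in *LApcL* (1126 to 1393). Their G2/M genes took 3082 CPM (2985 to 3182), 2853 CPM (2668 to 3046) and 2158 CPM (1989 to 2337). In cycling crypt-like cells the S genes took 1822, 1619 and 1755 CPM and the G2/M genes 2267, 2559 and 1865 CPM. In each library the S sum was thus lower and the G2/M sum higher in cycling goblet-like than in cycling crypt-like cells, with intervals that did not overlap. The balance was 1.2 (1.12 to 1.28), 1.19 (1.02 to 1.37) and 0.78 (0.59 to 0.98) in cycling goblet-like cells, against 0.32 (0.28 to 0.35), 0.66 (0.61 to 0.71) and 0.09 (0.03 to 0.15) in cycling crypt-like cells, and 0.56 (0.47 to 0.65) and 0.42 (0.39 to 0.44) in cycling adenoma-like cells of *LApc* and *LApcL*.

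Cell by cell the lean was plainest in WT. A list was counted as present in a cell from 2 UMIs. Of cycling goblet-like cells, 20.7% held G2/M but not S genes in WT (16.9 to 25), 18.3% in *LApc* (11.4 to 27.1) and 14% in *LApcL* (7.66 to 22.7). Of cycling crypt-like cells the share was 8.41% (7.15 to 9.81), 12.9% (10.9 to 15.0) and 6.44% (4.85 to 8.36), and of cycling adenoma-like cells 10.2% (7.23 to 13.9) and 10.4% (9.45 to 11.3). The intervals of goblet-like and crypt-like cells stood apart in WT and overlapped in *LApc* and *LApcL*. The shares depended on the limit. From 1 UMI they were 11%, 3.85% and 6.45% in goblet-like and 2.35%, 3.38% and 2.48% in crypt-like cells, and from 3 UMIs 35.1%, 26.0% and 22.6% against 17.0%, 24.4% and 13.3%, so goblet-like and crypt-like cells of *LApc* were nearly level. Most cycling cells held both lists, from 67.7% in goblet-like cells of *LApcL* to 75.4% in adenoma-like cells of *LApc*.

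**Figure D4:**
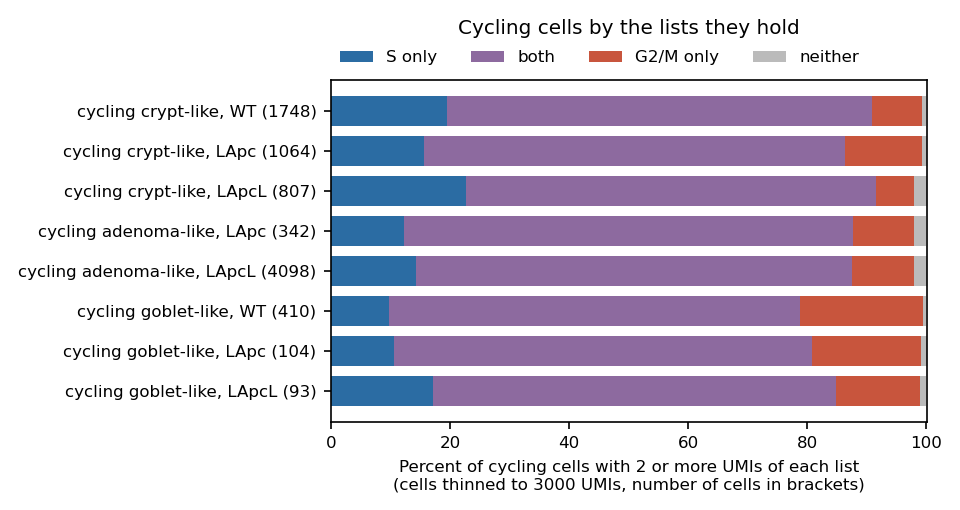
Percent of cycling cells, by class and library, with 2 or more UMIs of the S list only, of the G2/M list only, of both or of neither (cells thinned to 3000 UMIs, number of cells in brackets). The G2/M-only part is the widest in cycling goblet-like cells, at 20.7%, 18.3% and 14% in WT, *LApc* and *LApcL*.

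Goblet markers and doublet scores were read beside these values. Goblet markers summed to 75464, 55513 and 57039 CPM (WT, *LApc*, *LApcL*) in the cycling goblet-like cells, and to 225275, 334315 and 202900 CPM in the other goblet-like cells and to 5157, 2873 and 1387 CPM in cycling crypt-like cells. Crypt markers summed to 904, 1362 and 1398 CPM in cycling goblet-like cells and to 387, 375 and 524 CPM in the others. The median doublet score was 0.115, 0.106 and 0.162 in cycling goblet-like cells and 0.0392, 0.0314 and 0.0567 in the others. The part of doublets between goblet and crypt cells was not tested. By cluster, the WT balance was 0.94 (0.83 to 1.06) in the *Agr2*-led cluster with the higher doublet score, 0.14, and 1.47 (1.35 to 1.60) in the one with the lower score, 0.0783. In the former cluster, *LApc* (69 cells) had a balance of 0.78 (0.56 to 1.01), which overlapped that of its cycling crypt-like cells, and a G2/M sum of 2237 CPM (2038 to 2450), below theirs of 2559 CPM. There *LApcL* (69 cells) had a balance of 0.79 (0.57 to 1.03) and a G2/M sum of 2087 CPM (1895 to 2293). In the cluster that held most of its cycling goblet-like cells, the lean of *LApc* could thus not be told from that of its cycling crypt-like cells. In the other goblet-like cells, the S genes took 230, 183 and 317 CPM and the G2/M genes 196, 161 and 250 CPM, near the enterocyte-like background.

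Gene by gene, in WT 16 of 20 S genes were called lower and none higher in cycling goblet-like than in cycling crypt-like cells, and 16 of 20 G2/M genes higher and 1, *Bub1*, lower, against 27.3% higher and 33.4% lower of all 7239 genes. In *LApc*, 10 of 19 S genes were called lower and none higher, and 6 of 20 G2/M genes higher and none lower, against 30.9% higher and 35.3% lower of 7423 genes. In *LApcL*, 13 of 20 S genes were called lower and 1, *Fen1*, higher, and 6 of 20 G2/M genes higher and 3, *Ccnb1*, *Tpx2* and *Plk1*, lower, against 32.1% higher and 33.6% lower of 7184 genes. The G2/M counts of *LApc* and *LApcL* lay near the share of all genes, and with 104 and 93 cells most intervals of single genes were wide. Of the other cell-cycle genes, 18 of 29 G2/M genes were called higher in WT, 9 of 29 in *LApc* and 16 of 29 in *LApcL*, and 0, 3 and 4 lower, and 18 of 28, 13 of 27 and 16 of 28 S phase genes were called lower. Those other genes also decided which cells were called cycling, so their counts here are no independent check of the lists.

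Of the S list, 4 genes were called lower in all 3 libraries, *Mcm2*, *Ung*, *Gins2* and *Slbp*, and 1 G2/M gene, *Nusap1*, was called higher in all 3, against 11.1% and 10.8% of the 6518 genes at the minimum level in each. *Gins2*, a part of the helicase at the moving fork, stood at 56.4 CPM in cycling crypt-like and 39 CPM in cycling goblet-like cells of WT (log2 -0.53, interval -1.0 to -0.09), at 57.0 and 16.0 CPM in *LApc* (-1.83, -3.47 to -0.58) and at 66.1 and 25.1 CPM in *LApcL* (-1.40, -2.73 to -0.32). *Nusap1* stood at 87.5 and 129 CPM in WT (0.56, 0.29 to 0.83), at 102 and 154 CPM in *LApc* (0.60, 0.13 to 1.04) and at 63.2 and 108 CPM in *LApcL* (0.77, 0.15 to 1.34). The intervals of *Gins2* and *Nusap1* excluded 0 in every library.

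In WT, where the cycling goblet-like cells were most numerous, *Cdt1* had the lowest ratio of the S list, at 55.7 CPM in cycling crypt-like and 26.0 CPM in cycling goblet-like cells (log2 -1.10, interval -1.67 to -0.57). *Ung* (36.6 and 19.5 CPM, -0.91, -1.59 to -0.29) and *Mcm2* (60.1 and 35.0 CPM, -0.78, -1.28 to -0.32) followed. *Tyms* (152 and 153 CPM, 0.00, -0.23 to 0.24), *Mcm4* (-0.07, -0.60 to 0.42) and *Uhrf1* (-0.15, -0.59 to 0.26) had the highest, and *Pcna* stood at 111 and 92.7 CPM (-0.26, -0.56 to 0.03). The helicase subunits *Mcm2* and *Mcm4* thus stood at opposite ends of the list, and the interval of *Tyms* included 0. Of the mitosis genes, *Ccnb1* had the highest ratio (52.3 and 84.6 CPM, 0.69, 0.35 to 1.03), then *Kif20b*, a motor of cell separation (47.3 and 74.8 CPM, 0.66, 0.30 to 1.01), and *Tpx2*, which builds spindle microtubules (54.5 and 83.7 CPM, 0.62, 0.28 to 0.95). *Mki67* stood at 190 and 286 CPM (0.59, 0.41 to 0.77), *Top2a* at 362 and 415 CPM (0.20, 0.06 to 0.34) and *Cdk1* at 132 and 155 CPM (0.23, -0.01 to 0.47). *Bub1* was the lowest, at 16.2 and 11.4 CPM (-0.51, -1.44 to 0.31).

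In *LApc* and *LApcL* the same 5 genes had wider intervals. *Mki67* stood at 218 and 228 CPM in cycling crypt-like and cycling goblet-like cells of *LApc* (log2 0.06, interval -0.31 to 0.41) and at 162 and 258 CPM in *LApcL* (0.67, 0.29 to 1.04). *Top2a* stood at 411 and 446 CPM (0.12, -0.15 to 0.37) and at 357 and 419 CPM (0.23, -0.06 to 0.51), and *Cdk1* at 133 and 167 CPM (0.33, -0.11 to 0.75) and at 99.5 and 125 CPM (0.33, -0.22 to 0.85). *Ccnb1* stood at 62.7 and 64.1 CPM (0.03, -0.71 to 0.70) and at 42.1 and 28.7 CPM (-0.56, -1.81 to 0.48), and *Pcna* at 117 and 96.2 CPM (-0.29, -0.87 to 0.25) and at 75.6 and 46.6 CPM (-0.70, -1.63 to 0.11). Of these, only *Mki67* in *LApcL* had an interval without 0. *Cdc6* had 0 UMIs in the 104 cycling goblet-like cells of *LApc*, and 3 UMIs over these cells would be 9.62 CPM, the most that a count of 0 allows. In *LApcL*, *Cenpe* had the highest G2/M ratio (40.5 and 86.0 CPM, 1.09, 0.38 to 1.74) and *Tpx2* the lowest (50.4 and 32.3 CPM, -0.64, -1.81 to 0.33).

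The genes could also be ordered by the company they kept. For each gene, the UMIs of the other 39 genes were summed over the cells that held it, and the share of those that belonged to the G2/M list was taken. In crypt-like cells of WT this share ran from 31.1% for *Ung*, 35.5% for *Cdc6* and 38.8% for *Cdt1* to 71.8% for *Ccnb1* and 72.1% for *Cdc20*. The licensing genes *Cdc6* and *Cdt1* thus stood with the repair gene *Ung* at one end, and *Ccnb1* and *Cdc20*, which act at the start and the end of mitosis, at the other. The lists met at *Tk1*, the S gene with the highest share (56.4%), and *Top2a*, the G2/M gene with the lowest (55.6%), and *Tyms* (54.6%), *Rrm1* (53.5%), *Fen1* (52.0%), *Gmnn* (51.6%) and *Dut* (51.4%) also stood past 50%. *Pcna* stood at 44.1%, *Mki67* at 61.2% and *Cdk1* at 60.8%. Each gene was left out of its own sum, so S genes were set against 19 S and 20 G2/M genes, and G2/M genes against 20 S and 19. Leaving out a gene with many UMIs moves its own share. *Top2a* held 2111 of the 13800 G2/M UMIs of these cells, which lowers its share. *Dut* held 1560 of the 12611 S UMIs, which raises its share. The place of *Top2a* beside *Tk1* was thus set in part by this rule.

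The spread of this order was narrower in adenoma-like cells of *LApcL*. There the share ran from 38.8% for *Ung* to 67.1% for *Nusap1*, and in adenoma-like cells of *LApc* from 31.3% for *Cdc6* to 74.9% for *Ccnb1*. In crypt-like cells it ran from 31.4% (*Ung*) to 75.9% (*Ccnb1*) in *LApc* and from 30.3% (*Ung*) to 67.9% (*Ccnb1*) in *LApcL*. The median doublet score was 0.133 in adenoma-like cells of *LApcL*, 0.0880 in those of *LApc* and 0.0392 in crypt-like cells of WT, and its part in the range was not tested.

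**Figure D5:**
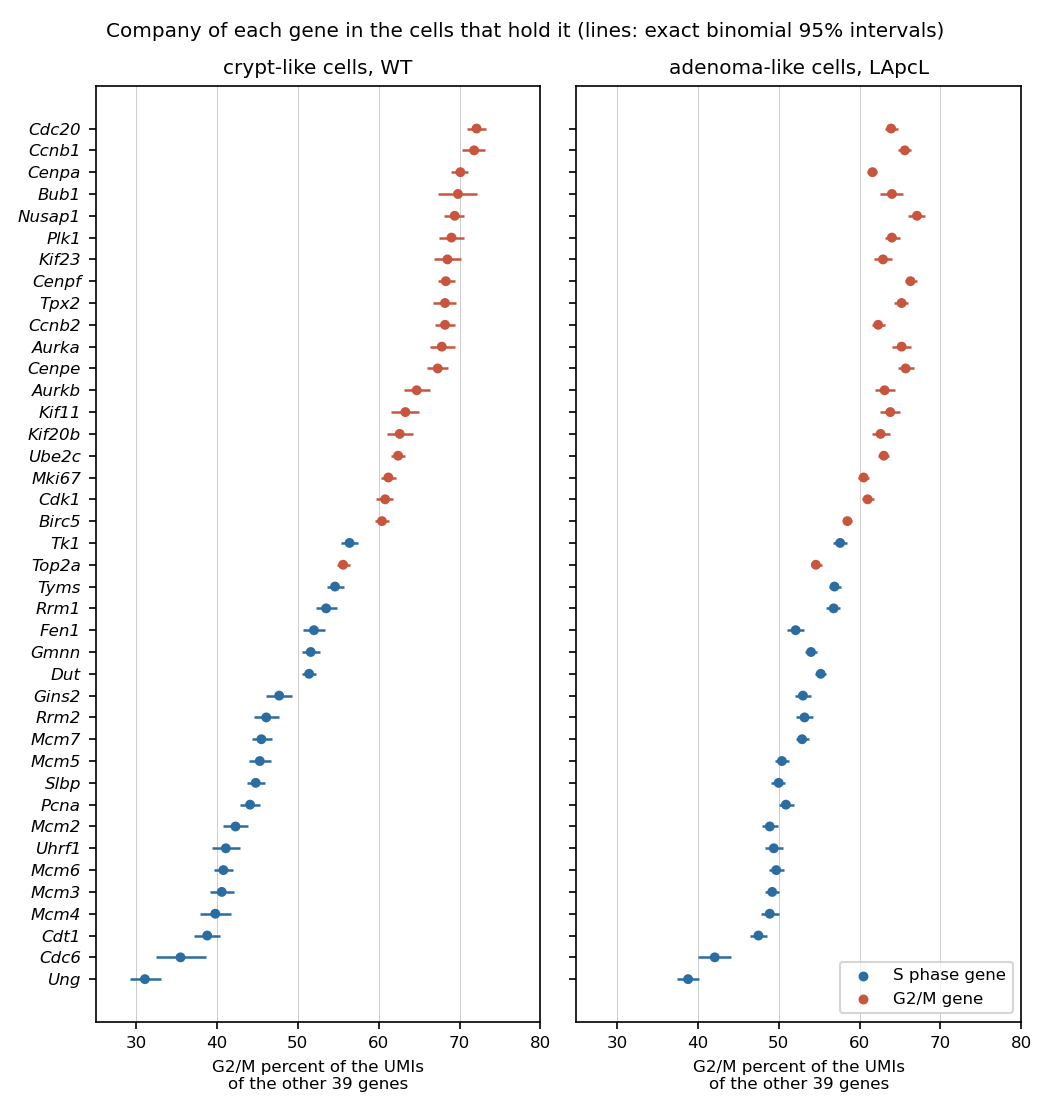
Share of G2/M UMIs (percent, x axis) among the UMIs of the other 39 genes in the cells that hold each gene (rows, blue for S and red for G2/M genes), with 95% binomial intervals, in crypt-like cells of WT (left) and adenoma-like cells of *LApcL* (right). In WT the genes run from *Ung* at 31.1% to *Cdc20* at 72.1%, and *Tk1* (56.4%) stands above *Top2a* (55.6%), and on the right the range is narrower, from 38.8% to 67.1%.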

How the data were processed

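The authors deposited raw UMI counts, 1 for each of 27998 genes in each barcode. The submitters' processing notes name Cell Ranger 2.1.1 and the builds mm10 and GRCm38. The methods leave the reagent kit version of each library unclear, so kit may also differ. The authors' cell annotation was not used here.

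The 40 genes, their lists and the panel of 60 other cell-cycle genes (30 of S phase, 30 of G2/M) were chosen with earlier results of these data known. Per library, barcodes in the lowest or highest 1% by genes detected were dropped, as were those above 20% mitochondrial UMIs. Scrublet (scanpy 1.11.5) marked 2875, 3 and 2091 cells with its automatic threshold, so cells were instead removed from the top score down to the doublet rate expected for the library (9.16%, 10.6% and 13.9%), in place of the study's scDblFinder. Median depth of the kept cells was 9711.5, 6133 and 10140 UMIs. Cells were clustered on 1923 variable genes without cell-cycle genes (30 components, 20 neighbours, Leiden resolution 1, 25 clusters), and clusters were named "X-like" from at least 3 raised markers. Levels are UMIs scaled to a total of 1000000 (CPM) after thinning to 3000 UMIs per cell. With 1 library per genotype there was no test. A gene was called past 1.2-fold, and intervals are exact 95% intervals. Thinning, ratios with their intervals and binomial intervals were tested on simulated data. Clustering, the naming of classes and the call of cycling cells were not. All 40 genes are covered by function, with full values for *Pcna*, *Mki67*, *Top2a*, *Cdk1* and *Ccnb1* and the 3 highest and 3 lowest ratios of each list. Promoters came from RefSeq and positions from GENCODE. The alternatives were 17 planned settings and 2 added after seeing the data.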

Additional observations from a re-analysis of the deposited data

Results flagged for a closer look

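The G2/M genes stood on opposite sides in the same contrast of 2 groups, and the differences were not tested, since each library is 1 sample. Between adenoma-like and crypt-like cells their log2 ratio was -0.81 in *LApc* and 0.10 in *LApcL*, and the second value turned with other settings of scaling, clustering and doublet removal. Between *LApcL* and *LApc* their log2 ratio was 0.43 in adenoma-like cells and -0.48 in crypt-like cells, while the S genes stood at 0.47 and 0.06. Each of these 6 values had an interval for counting error that did not include 0, and mouse, library and day cannot be told apart from genotype in the second contrast.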

How the results depend on the processing

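Of 321 alternative values of 32 results, under 19 settings, 184 lay within the interval of the reported value. No paired analysis was possible because each genotype had 1 library and the results come from no test. Values below are log2 ratios unless given in percent, "adenoma over crypt" compares adenoma-like with crypt-like cells, and the cause of a change was not tested. Among the log2 ratios of the lists, 6 values changed sign, the G2/M genes of adenoma over crypt in *LApcL* (0.10), which came to -0.04 with TMM scaling, -0.15 with cell-cycle genes kept in clustering, -0.04 without doublet removal, -0.01 at another clustering resolution and -0.04 with a total without ribosomal and mitochondrial genes, and the G2/M genes of crypt-like *LApc* over WT (-0.08), which came to 0.06 at 5000 UMIs.

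For *LApcL* over *LApc* in adenoma-like cells, the S value was 0.58 and the G2/M value 0.54 with TMM scaling and with a total without ribosomal and mitochondrial genes, 0.30 and 0.33 without thinning, and 0.28 and 0.25 at 5000 UMIs, and the S value was 0.34 without the *Wfdc18*-led cluster and 0.53 with classes set per cell. The difference in balance (-0.04, within counting error) was 0.11 without that cluster, -0.12 with classes per cell, 0.03 without thinning and 0.01 with the integration, so its sign was not settled. Cycling adenoma-like cells made up 32.1% in *LApc* without that cluster, 26.3% and 45.8% (*LApc*, *LApcL*) with classes per cell, 43.2% and 66.7% from 3 UMIs, 16.5% and 25.3% from 8 UMIs, 51.0% and 82.6% without thinning, 18.0% and 30.5% at 2000 UMIs and 46.3% and 66.0% at 5000 UMIs. *LApcL* was the higher in each of these pairs. The share of cycling crypt-like cells ran over all alternatives from 38.8% up to 93.1% (WT), from 33.5% up to 80.7% (*LApc*) and from 25.7% up to 80.8% (*LApcL*).

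For adenoma over crypt in *LApc*, the S and G2/M values were -0.86 and -1.01 with TMM scaling, -0.87 and -1.02 with the reduced total, -0.60 and -0.66 with classes per cell and -0.45 and -0.70 without thinning. The S value was -0.53 without the *Wfdc18*-led cluster, -0.60 with the study's integration and -0.55 at 5000 UMIs, and the G2/M value -0.95 with cell-cycle genes kept. In *LApcL* the S value was -0.40 with TMM scaling, -0.39 with the reduced total, -0.37 with cell-cycle genes kept, -0.09 with classes per cell, -0.30 with the integration and -0.31 at 5000 UMIs, and the G2/M value 0.15 with the integration, 0.14 at 2000 UMIs and 0.18 without *Top2a*, the member with the most UMIs.

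For crypt-like *LApc* over WT, S was -0.35 and G2/M -0.12 with TMM scaling, S was -0.21 with cell-cycle genes kept (difference in balance 0.14) and -0.20 at 5000 UMIs, and G2/M -0.14 with classes per cell and -0.12 with the integration. For *LApcL* over WT, S was -0.05 and G2/M -0.45 (balance -0.40) with cell-cycle genes kept, -0.17 and -0.39 (-0.22) without doublet removal, -0.18 and -0.63 (-0.44) with the integration, and -0.18 and -0.49 with the reduced total. S was -0.32 with classes per cell (balance -0.21), -0.20 without thinning, -0.19 at 2000 UMIs (balance -0.40) and -0.16 at 5000 UMIs, and G2/M was -0.47 at the other resolution. The excess in balance of cycling goblet-like over cycling crypt-like cells in WT was 0.66 with cell-cycle genes kept, 0.77 without doublet removal, 0.78 without thinning and 0.75 with the integration, and in *LApc* 0.27 at 2000 UMIs, and it kept its sign under all 14 alternatives in each of the 3 libraries.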

Other observations

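Other named classes of the epithelium held fewer UMIs of the lists than crypt-like cells. The balance of enteroendocrine-like and tuft-like cells differed between libraries. In enteroendocrine-like cells, the hormone cells of the gut, the S genes took 601, 317 and 521 CPM and the G2/M genes 659, 235 and 396 CPM (WT, *LApc*, *LApcL*). The WT balance of these cells was 0.13 (-0.02 to 0.29), that of *LApc* -0.43 (-0.70 to -0.17) and that of *LApcL* -0.40 (-0.59 to -0.21). In tuft-like cells, the chemosensory cells, the balance was 0.54 (0.34 to 0.73) in 263 cells of WT, -1.12 (-1.79 to -0.47) in 64 cells of *LApc* and -0.48 (-0.70 to -0.27) in 313 cells of *LApcL*. Tuft-like cells of WT took 475 (S) and 689 CPM (G2/M), and whole goblet-like cells 373 and 567 CPM. Cycling were 23.4% of enteroendocrine-like, 14.8% of tuft-like and 12.9% of goblet-like cells of WT. Goblet-like cells were thus the lowest of these classes in WT. In *LApc* and *LApcL* they were the lowest in S genes and the highest in G2/M genes. Paneth-like cells, which make the antimicrobial peptides of the crypt base, took 164, 270 and 411 CPM of the S genes and 164, 206 and 365 CPM of the G2/M genes, and 3.00%, 4.41% and 7.44% of them were cycling. Of the 336 *LApcL* cells, 185 came from a *Lyz1*-led cluster that held 1 cell of WT and 12 of *LApc*. In the other cluster (433, 124 and 151 cells) the S genes took 162, 263 and 342 CPM and the G2/M genes 165, 188 and 331 CPM. There 3.00%, 4.03% and 4.64% of cells were cycling, with overlapping intervals. Adenoma markers stood in the same order of libraries in Paneth-like cells, at 4.61, 76.0 and 400 CPM, and their part in these values was not tested.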
